A study of Mus musculus with 24 samples.

Results

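The data described here are the liver transcriptomes taken at CT18 and at CT22, late in the active phase of a nocturnal animal. They comprise 8 of the 24 libraries of the series, chosen by the genotype and circadian time in their titles, with 2 libraries each of WT CT18, WT CT22, ΔRRE CT18 and ΔRRE CT22. All were made from livers of male mice kept in constant darkness, so the times are circadian times (CT) projected from the earlier light-dark cycle. The ΔRRE mice were homozygous for a deletion of the 2 RREs in the 5′-UTR region of *Bmal1*, in all cells of the body and from a single mutant line, and the WT mice carried both elements. The question of the comparison was which genes change late in the active phase and whether both genotypes change alike. It therefore set the 4 libraries of CT22 against the 4 of CT18 with genotype as a term, over the 11244 of 54733 genes whose mean over the series was at least 1 FPKM (fragments per kilobase of transcript, scaled to the sequencing depth). No label says whether the 2 libraries of a group came from separate animals, so the p-values measure only the spread between these libraries.

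In the mammalian clock, CLOCK or its relative NPAS2 pairs with BMAL1 and activates genes with E-boxes, among them the *Per* and *Cry* genes, whose proteins then repress that activation. A further loop acts through RREs, which REV-ERB proteins repress and ROR proteins activate, and *Bmal1*, *Clock*, *Npas2* and *Nfil3* are driven through it. D-boxes form another output, activated by DBP, TEF and HLF and repressed by NFIL3. In mouse liver, transcripts of lipid synthesis are known to be high around feeding in the night, and heat shock transcripts around the daily peak of body temperature.

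*Bmal1*, listed in the tables as *Arntl* (chr7:113207465-113314126 of GRCm38, plus strand), is the gene that carried the deletion. Its level was 5.96 and 5.76 FPKM in the libraries of WT CT18 and 10.3 and 11.2 FPKM in those of WT CT22. In ΔRRE it was 2.70 and 3.24 FPKM at CT18 and 3.83 and 3.29 FPKM at CT22, below every WT library at either time. The deletion lies outside the coding sequence, and a transcript was still measured in the mutant. The 14 hepatocyte markers summed to between 60990 and 68460 FPKM at CT18 and between 61450 and 68690 FPKM at CT22, and none of them was called. Among the 8 lists of markers of other cells that the sample could hold, no tested member was called, against 1.78% of all genes. The lists of lymphocytes and neutrophils, pancreas and gut, and adipose and muscle had only 1 tested member each. Of 13 tested Kupffer cell and macrophage markers, 12 had a negative log2 change and 1 a positive one, against 52.3% negative of all genes. That list summed to 42.5 FPKM in WT CT22 replicate 1 and to 84.6 to 173 FPKM in the other libraries. The summed level did not overlap between the times only for the pancreas and gut markers, at 11.7 to 19.9 FPKM at CT18 and 21.1 to 25.8 FPKM at CT22. That sum came almost wholly from *Cela1*, and 10 of the 14 members, *Prss2*, *Cpa1* and *Pnlip* among them, were at 0 in all 8 libraries. Fewer cells of a type and less RNA per cell cannot be told apart in such bulk samples. The library WT CT18 replicate 1 had the highest FPKM sum, 624746 against 569278 to 595474 in the others. It also had the largest share of mitochondrial transcripts, 17.9% against 13.1% to 16.3%. Counts of calls without it are given for the whole comparison, but not for every gene list.

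From CT18 to CT22, 115 genes rose and 85 fell in both genotypes together, by limma's moderated test with an adjusted p under 0.05. These were 1.02% and 0.756% of all genes tested, or 1.78% in either direction. When the libraries were rescaled by the median of ratios, 90 were higher and 98 lower, so that the share of higher calls went from 57.5% to 47.9%. An unadjusted p under 0.05 was reached by 1838 genes. The changes were of moderate size, and 48 of the risen and 41 of the fallen genes differed by 2-fold or more on the log2(FPKM + 0.1) scale, on which every fold here is given and which understates the change of genes at low levels. Over all genes tested the median log2 change was -0.01. All 4 CT22 values lay above all 4 CT18 values for 109 of the 115 risen genes and below them for 84 of the 85 fallen genes, which the choice of genes by these same values largely fixes. The shares over all genes tested were 4.9% and 4.28%. With 8 libraries the count depended on each of them. It was 248 without WT CT18 replicate 1, 76 without WT CT18 replicate 2, 78 and 81 without WT CT22 replicates 1 and 2, 76 and 53 without ΔRRE CT18 replicates 1 and 2, and 50 and 63 without ΔRRE CT22 replicates 1 and 2. The call held in all 8 of these fits for 40 of the 200 genes, and every gene kept its direction in them.

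**Figure D1:**
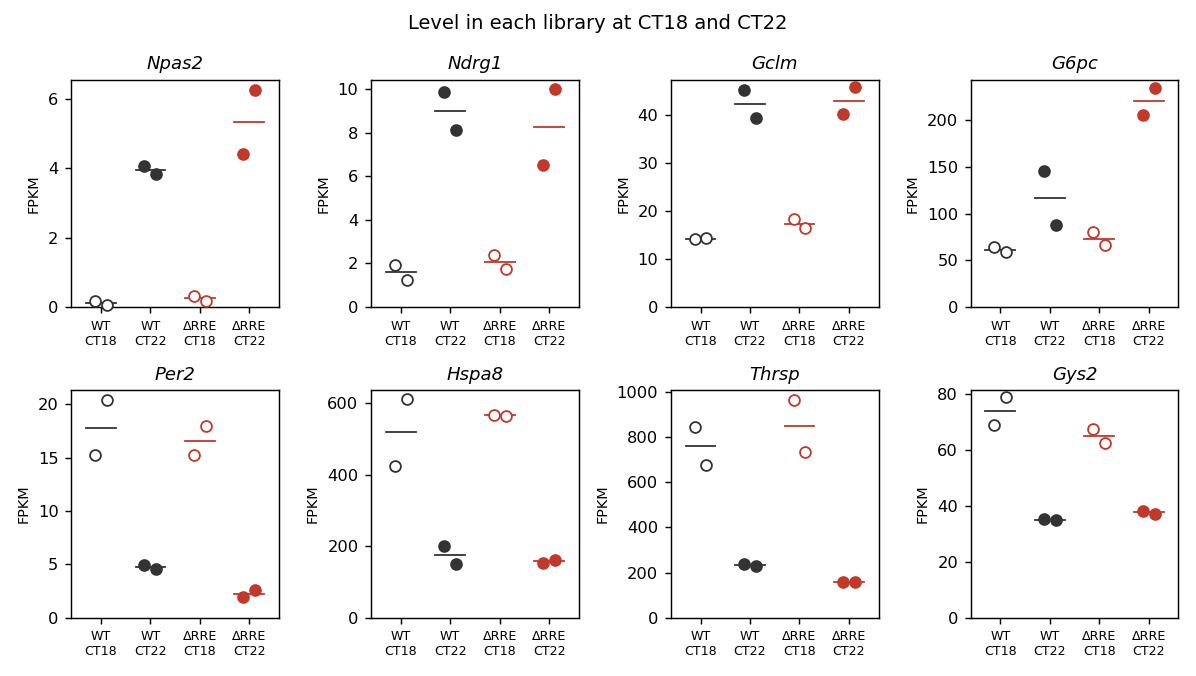
FPKM (vertical axes, from 0) of 8 genes in each library of WT (black) and ΔRRE (red), with CT18 as open and CT22 as filled points and the mean of the 2 libraries as a line. *Npas2*, *Ndrg1*, *Gclm* and *G6pc* were higher in every CT22 library than in any CT18 library, and *Per2*, *Hspa8*, *Thrsp* and *Gys2* lower.

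The clock activators and genes driven through RREs were led by *Npas2* (chr1:39193731-39363236, plus strand). Its level at CT18 was 0.170 and 0.0577 FPKM in WT and 0.327 and 0.182 FPKM in ΔRRE. At CT22 it was 4.07 and 3.82 FPKM in WT and 4.41 and 6.24 FPKM in ΔRRE. The lowest CT22 library was thus more than 10 times the highest CT18 library, in a gene that was near its daily minimum at CT18. The log2 change was 4.12 ± 0.27 (SE, adjusted p = 0.0011), the largest rise of any named gene. Since the CT18 values are close to the 0.1 FPKM added before the logarithm, the log2 change was 2.24 with 1 FPKM added and 4.77 with 0.01 FPKM.

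*Elovl3*, an elongase of very long fatty acids whose transcript is known to be rhythmic in liver, rose from 202 ± 48.5 FPKM to 431 ± 61.5 FPKM (SD, n = 4 at each time; log2 change 1.12 ± 0.17, adjusted p = 0.0177). Its call was lost without WT CT22 replicate 2 (adjusted p = 0.0536), ΔRRE CT18 replicate 2 (0.0649) or ΔRRE CT22 replicates 1 and 2 (0.0577 and 0.0660), and with all 24 libraries in 1 fit (0.446). *Gys2*, the liver glycogen synthase and also a member of this list, fell in every pair of groups. It stood at 69.1 and 79.1 FPKM in WT CT18, 67.6 and 62.5 FPKM in ΔRRE CT18, 35.4 and 34.8 FPKM in WT CT22 and 38.3 and 37.2 FPKM in ΔRRE CT22 (log2 change -0.93 ± 0.09, adjusted p = 0.00295). Its highest WT libraries were those of CT10 and CT14, at 107 to 141 FPKM, when *Npas2* was near its minimum. Whether *Gys2* is driven through RREs in these livers was not tested. The other 7 of the 10 members did not pass, while 1.78% of all genes were called in either direction. *Bmal1* had a log2 change of 0.56 ± 0.16 (adjusted p = 0.127), made up of 0.86 in WT and 0.26 in ΔRRE. *Nfil3*, a repressor of D-boxes, had 0.70 ± 0.17 (adjusted p = 0.0872), and *Clock* 0.47 ± 0.16 (adjusted p = 0.202) with no overlap of the times. *Rora*, which encodes an activator of RREs, had 0.23, *Cry1* 0.05 and *E2f8*, a cell cycle regulator, -0.28, with adjusted p from 0.373 to 0.894. The median log2 change of the 10 members was 0.35.

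Among repressors of the clock and outputs of E-boxes and D-boxes, 6 of the 14 members tested fell and none rose, against 0.756% of all genes for falls, and the median log2 change was -0.85 against -0.01 over all genes. *Per2* (chr1:91415982-91459324, minus strand) had the largest fall among them. Its level was 15.2 and 20.4 FPKM in WT CT18 and 15.3 and 17.9 FPKM in ΔRRE CT18, and 4.90 and 4.59 FPKM in WT CT22 and 1.91 and 2.61 FPKM in ΔRRE CT22. The CT18 libraries of the genotypes lay together, and at CT22 the ΔRRE libraries lay below the WT libraries. The log2 change was -2.35 ± 0.22 (adjusted p = 0.00221). *Per3*, a further period gene, fell from 3.98 ± 0.146 to 1.07 ± 0.377 FPKM. *Ciart*, a repressor of CLOCK and BMAL1, fell from 2.67 ± 0.493 to 0.645 ± 0.198 FPKM. *Wee1*, a kinase that holds back mitosis, fell from 3.81 ± 1.03 to 1.08 ± 0.274 FPKM, and the deubiquitinase gene *Usp2* from 9.98 ± 0.681 to 3.44 ± 1.17 FPKM. *Tef*, a D-box activator, fell from 28.4 ± 5.66 to 16.1 ± 2.49 FPKM (SD, n = 4 for each of these values). Their log2 changes lay between -1.92 and -0.80, with adjusted p from 0.00689 to 0.0329. *Per2*, *Ciart* and *Usp2* kept their call without any 1 library, and that of *Usp2* was lost with all 24 libraries in 1 fit (adjusted p = 0.0511). That of *Per3* was lost without ΔRRE CT18 replicate 2 (adjusted p = 0.0547) and that of *Wee1* without ΔRRE CT18 replicate 2 (0.0524) or ΔRRE CT22 replicate 1 (0.0540), while *Tef* lost it in 7 of the 8 such fits (0.0625 to 0.104).

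The other 8 members of that list did not pass. The PAR bZIP gene *Dbp* had a log2 change of -0.99 ± 0.26 (adjusted p = 0.104) and *Per1* -0.90 ± 0.31 (adjusted p = 0.199). *Nr1d1* and *Nr1d2* encode the REV-ERB repressors. *Nr1d1* had a mean of 0.853 ± 0.354 FPKM in the CT18 libraries against 1.34 ± 0.314 FPKM 4 h later (SD over 4 libraries; adjusted p = 0.350), far below its highest mean of the day, 45.3 FPKM at CT6. *Nr1d2* had a log2 change of -0.53 ± 0.20 (adjusted p = 0.246). *Cry2*, *Hlf*, *Bhlhe40* and *Tspan4* had log2 changes of -0.26, -0.27, -0.34 and -0.36. *Bhlhe41* was below the level filter.

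Sequence windows of RefSeq on GRCm38.p6, from 250 bases before to 50 bases after each annotated start, were searched on both strands for motifs of the clock and of stress factors. The table held a window for 8226 of the 11244 genes tested, matched by symbol, among them 87 of the risen and 60 of the fallen genes. The E-box CACGTG was in the windows of 13 fallen genes (21.7%) and 10 risen genes (11.5%), against 12.2% of all genes tested. The D-box TTATGNAA was in those of 8 fallen genes (13.3%) and 4 risen genes (4.6%), against 2.78% of all. The cyclic AMP response element TGACGTCA was in 1 fallen and 4 risen genes, against 3.66% of all. The RRE was in no risen and no fallen gene and in 0.267% of all, which says only that these letters are not in this window. The heat shock element, 3 inverted GAA units, was in 1 fallen gene, *Hsph1*, and no risen gene, against 0.584% of all. The palindromic glucocorticoid response element was in 1 risen gene, *Serpinf2*, and no fallen gene, against 0.365% of all. No test was made of these counts, and a match is not evidence of binding. The windows below are those of 6 fallen genes, chosen after their values were seen because they hold an E-box or D-box before the start, with the motif in capitals and each sequence read along the strand of its gene.
Per3 (chr4:151044805-151044834, minus strand, D-box): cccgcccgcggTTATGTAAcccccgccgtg
Noct (chr3:51224342-51224371, plus strand, D-box): tagccttcattTTCCATAActacagtgctg
Cyp2a5 (chr7:26835257-26835286, plus strand, D-box): aggtgaaatagTTGCATAAtcaagaccaaa
Ciart (chr3:95882262-95882291, minus strand, E-box): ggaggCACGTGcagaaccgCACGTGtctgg
Tef (chr15:81802534-81802563, plus strand, E-box): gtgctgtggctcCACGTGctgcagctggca
Rcan1 (chr16:92466343-92466372, minus strand, E-box): cagagtgggtgtCACGTGacaaaaatcccg
*Ciart* held 3 E-boxes before its start, of which 2 are shown, and *Per3* held 2 D-boxes, of which 1 is shown. In *Noct* and *Cyp2a5* the D-box lies on the opposite strand.

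Heat shock and endoplasmic reticulum chaperones formed the list with the most called members. Of the 30 tested, 9 fell and none rose, against 0.756% of all genes for falls. A lower level with an unadjusted p under 0.05 was found for 24 of the 30, against 8.15% of all genes, and all 30 had the same sign in both genotypes, against 62.4%. In 17 of the 30 every CT22 library lay below every CT18 library, against 4.28% of all genes. *Hspa8* (chr9:40800984-40810087, plus strand), the constitutive cytosolic HSP70, was the most abundant of the named members. Its level at CT18 was 425 and 613 FPKM in WT and 569 and 565 FPKM in ΔRRE. At CT22 it was 201 and 150 FPKM in WT and 154 and 163 FPKM in ΔRRE. The genotypes overlapped at each time and the times did not (log2 change -1.70 ± 0.14, adjusted p = 0.00127).

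*Hspa1b* and *Hspa1a*, the heat-inducible HSP70 genes, are near-identical copies, so how their reads were split between them is uncertain. *Hspa1b* was at 9.25, 23.6, 12.2 and 20.9 FPKM in WT CT18 replicates 1 and 2 and ΔRRE CT18 replicates 1 and 2, and at 3.07, 1.96, 2.50 and 3.04 FPKM in the matching CT22 libraries. *Hspa1a* fell from 3.83 ± 1.71 to 0.606 ± 0.202 FPKM (SD, n = 4 at each time). Their log2 changes were -2.52 and -2.41 (adjusted p = 0.00708 and 0.0177). *Hsph1*, which encodes the HSP110 cochaperone, fell from 37.4 ± 11.6 to 11.5 ± 1.94 FPKM (log2 change -1.66 ± 0.22, adjusted p = 0.0113). *Manf*, a secreted factor induced by endoplasmic reticulum stress, was at 74.8 and 186 FPKM in WT CT18, 96.2 and 167 FPKM in ΔRRE CT18 and between 32.4 and 50.6 FPKM at CT22 (log2 change -1.59 ± 0.29, adjusted p = 0.0314). The remaining called members were *Hsp90aa1*, *Bag3*, *Stip1* and *Ddit3*, named after their values were seen. *Hspa8*, *Hspa1b* and *Hsph1* kept their call without any 1 library, *Hspa1a* lost it without ΔRRE CT18 replicate 2 (adjusted p = 0.0660) or ΔRRE CT22 replicates 1 and 2 (0.0589 and 0.0591), and *Manf* in 7 of 8 such fits (0.0568 to 0.103). The count of called members was 3 to 14 when 1 library was left out, with 14 without WT CT18 replicate 1, 4 without WT CT18 replicate 2 or ΔRRE CT22 replicate 2, 5 without ΔRRE CT18 replicate 1 or either library of WT CT22, and 3 without ΔRRE CT18 replicate 2 or ΔRRE CT22 replicate 1. The median log2 change of the list was -0.74, with -0.71 in WT and -0.84 in ΔRRE.

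Of the genes of fatty acid and triglyceride synthesis, 3 of 22 tested fell and 2 rose, against 0.756% and 1.02% of all genes. *Thrsp* (chr7:97412938-97417730, minus strand), which encodes the lipogenic protein Spot 14, had the largest fall of the list. Its level was 844 and 676 FPKM in WT CT18, 967 and 735 FPKM in ΔRRE CT18, 238 and 230 FPKM in WT CT22 and 157 and 157 FPKM in ΔRRE CT22. The CT18 libraries of the genotypes overlapped, and the ΔRRE libraries were the lower ones at CT22. The log2 change was -2.06 ± 0.16 (adjusted p = 0.00127). *Fasn*, the fatty acid synthase, fell from 93.7 ± 22.6 to 37.7 ± 11.3 FPKM (log2 change -1.34 ± 0.26, adjusted p = 0.0407) and *Elovl6*, which elongates its product, from 26.9 ± 5.81 to 12.8 ± 2.48 FPKM (SD, n = 4; log2 change -1.06 ± 0.15, adjusted p = 0.0135). Against these, *Insig2*, which retains SREBP in the endoplasmic reticulum, rose from 49.7 ± 9.92 to 102 ± 16.4 FPKM (log2 change 1.05 ± 0.16, adjusted p = 0.0205). The other risen member was the polyunsaturated fatty acid elongase gene *Elovl5*. *Thrsp* kept its call without any 1 library, *Elovl6* lost it without ΔRRE CT22 replicate 1 (adjusted p = 0.0507), *Insig2* in 4 of 8 such fits (0.0604 to 0.0697) and *Fasn* in 7 of 8 (0.0683 to 0.126). The median log2 change of the list was -0.21. No gene of cholesterol synthesis or of the SREBP2 targets was called among 25, although all 25 had a negative log2 change, against 52.3% of all genes. An unadjusted p under 0.05 was reached by 2 of them (8%, against 8.15% lower among all genes), and 17 had the same sign in both genotypes (68%, against 62.4%), so these shares are near those of all genes. *Lss*, the lanosterol synthase gene, had a log2 change of -0.78 ± 0.34 (adjusted p = 0.305). The median of this list was -0.05 in WT and -0.62 in ΔRRE.

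Of 26 genes of gluconeogenesis and amino acid catabolism, 1 was called, against 1.78% of all genes in either direction. *G6pc* (chr11:101367561-101377903, plus strand), the glucose-6-phosphatase that releases glucose from the liver, was at 64.5 and 58.5 FPKM in WT CT18 and 80.6 and 65.9 FPKM in ΔRRE CT18. It was at 146 and 87.8 FPKM in WT CT22 and at 206 and 235 FPKM in ΔRRE CT22. Every CT22 library was above every CT18 library, and the rise was more uneven in WT (log2 change 1.24 ± 0.19, adjusted p = 0.0210). Its call was lost in 6 of the 8 fits without 1 library (adjusted p = 0.0536 to 0.0749). Of 19 genes of glucose uptake, glycolysis and glycogen, *Gys2* and *Pklr* fell, against 0.756% of all genes for falls. *Pklr*, the liver pyruvate kinase, went from 97.9 ± 27.5 to 51.7 ± 4.39 FPKM (SD, n = 4; log2 change -0.87 ± 0.17, adjusted p = 0.0380), and passed only without WT CT18 replicate 1 among the fits that left out 1 library (0.0626 to 0.122 in the others). A lower level with an unadjusted p under 0.05 was found for 9 of the 19, against 8.15% of all genes tested.

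The NAD list held 2 falls and 1 rise among 21 genes, against 0.756% and 1.02% of all genes. *Nampt* (chr12:32819545-32853349, plus strand), the rate-limiting enzyme of NAD salvage, was at 17.1, 19.8, 20.3 and 19.7 FPKM in the 4 CT18 libraries, WT before ΔRRE, and at 10.6, 11.3, 8.49 and 9.43 FPKM in the 4 CT22 libraries. The ranges were far apart (log2 change -0.95 ± 0.12, adjusted p = 0.00847). *Nmrk1*, a kinase of nicotinamide riboside, fell from 19.5 ± 2.13 to 11.98 ± 1.14 FPKM (adjusted p = 0.0251). *Kynu*, the kynureninase of tryptophan breakdown, rose from 52.7 ± 4.13 to 80.8 ± 6.09 FPKM (SD, n = 4; adjusted p = 0.0118). *Nampt* kept its call without any 1 library, *Kynu* lost it without ΔRRE CT18 replicate 2 (0.0524) or ΔRRE CT22 replicate 1 (0.0507), and *Nmrk1* in 5 of 8 such fits (0.0684 to 0.0835).

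Of 21 genes of bile acid synthesis and transport, 2 rose and none fell, against 1.02% of all genes for rises, and in 6 every CT22 library lay above every CT18 library, against 4.9% of all genes. *Hsd3b7*, an enzyme early in bile acid synthesis, rose from 125 ± 9.11 to 204 ± 13.9 FPKM (log2 change 0.71 ± 0.09, adjusted p = 0.00989) and kept its call without any 1 library. *Abcb11*, the bile salt export pump, rose from 78.6 ± 10.1 to 127 ± 14.2 FPKM (SD, n = 4; log2 change 0.69 ± 0.12, adjusted p = 0.0253), and lost its call in 6 of 8 such fits (0.0532 to 0.0870). Among 31 genes of drug metabolism and heme synthesis, the cytochrome P450 genes *Cyp2a5* and *Cyp2a4* fell, against 0.756% of all genes for falls. Both are near-identical copies that can share reads. *Cyp2a5* was at 542 and 440 FPKM in WT CT18, 429.6 and 391.7 FPKM in ΔRRE CT18, 236 and 249 FPKM in WT CT22 and 120 and 163 FPKM in ΔRRE CT22 (log2 change -1.28 ± 0.15, adjusted p = 0.00650). The lowest values were those of the ΔRRE CT22 libraries. *Cyp2a4* was 1.66 ± 0.501 and 0.516 ± 0.107 FPKM (SD, n = 4; adjusted p = 0.0255), and its call was lost in all 8 fits without 1 library (0.0520 to 0.0829). It was also lost with all 24 libraries in 1 fit (0.417) and without a filter (0.0837).

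Several further lists held 1 or 2 called genes, while 1.78% of all genes were called in either direction. Of 17 glucocorticoid-responsive genes and metallothioneins, the transcription factor gene *Klf9* rose (14.3 ± 1.13 to 21.8 ± 1.47 FPKM, adjusted p = 0.0243) and *Fkbp5*, a cochaperone of the glucocorticoid receptor, fell (11.1 ± 1.21 to 5.55 ± 1.41 FPKM, adjusted p = 0.0246). Both are known targets of the receptor and they moved in opposite directions. Of 16 cold-inducible RNA-binding proteins and splicing regulators, *Cirbp*, the cold-inducible RNA-binding protein itself, rose from 8.44 ± 1.94 to 16.0 ± 3.62 FPKM (adjusted p = 0.0340), and the splicing factor gene *Srsf5* from 66.6 ± 6.37 to 104 ± 17.8 FPKM (adjusted p = 0.0253). Of 21 genes of the growth hormone axis, *Elovl3* and *Stat5b* rose. Only 7 of these 21 had the same sign in both genotypes (33.3%, against 62.4% of all genes). *Stat5b*, which encodes a transcription factor downstream of the growth hormone receptor, went from 8.51 ± 0.977 to 17.0 ± 2.94 FPKM (adjusted p = 0.00903). Of 11 tested genes of amino acid stress, *Atf5* rose from 87.3 ± 19.4 to 137 ± 18.2 FPKM (SD, n = 4 for all values of this paragraph; adjusted p = 0.0482). *Stat5b* kept its call without any 1 library. The others lost it in 5 of 8 such fits for *Fkbp5* (0.0521 to 0.0750), 6 for *Klf9* (0.0649 to 0.0838) and *Srsf5* (0.0513 to 0.0844), 7 for *Cirbp* (0.0683 to 0.115) and 8 for *Atf5* (0.0504 to 0.148). *Cirbp* and *Atf5* also lost it after rescaling (0.0525 and 0.0540), without the genotype term (0.0622 and 0.0805) and with all 24 libraries in 1 fit (0.0678 and 0.125), as *Klf9* did in the last of these (0.117).

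No gene was called in the lists of fatty acid oxidation and ketogenesis (29 tested), immediate-early genes (13), acute-phase genes (23), cell cycle (14), ribosome biogenesis (34), cytosolic ribosomal proteins (79), respiratory chain (44), autophagy and lysosome (26) or proteasome (31). Over all genes tested, 1.78% were called in either direction. Between 0 and 22 members of each list were lower, and between 0 and 7 higher, at an unadjusted p under 0.05. Acute-phase genes held 7 of 23 higher (30.4%) and 1 lower, and autophagy and lysosome genes 5 of 26 higher (19.2%) and 2 lower. Immediate-early genes held 2 of 13 higher (15.4%) and 3 lower (23.1%). Apart from ribosomal proteins, the other lists held at most 6.9% higher and at most 13.8% lower members. Cytosolic ribosomal proteins held 22 of 79 such lower members and 1 higher, with a median log2 change of -0.16 and with 72 of 79 of the same sign in both genotypes, against 8.15% lower, 8.2% higher and 62.4% of the same sign over all genes. *Rps27* had means of 208 ± 22.7 and 160 ± 1.84 FPKM (SD, n = 4; adjusted p = 0.0943), and *Rps18* had a log2 change of -0.36 (adjusted p = 0.111). *Fabp1*, the fatty acid-binding protein of liver, was at 5146 ± 260 and 3562 ± 575 FPKM with no overlap (adjusted p = 0.0808), and the lipid droplet gene *Cidec* had a log2 change of -1.49 ± 0.45 (adjusted p = 0.153). *Cycs* and *Ndufv2*, of the respiratory chain, had -0.37 and -0.31 (adjusted p = 0.0853 and 0.0943). *Myc* was at 9.38 and 15.8 FPKM in WT CT18, 2.24 and 7.68 FPKM in ΔRRE CT18 and 0.529 to 3.64 FPKM at CT22 (log2 change -2.44 ± 0.66, adjusted p = 0.115). *Gadd45g* had -2.12 ± 0.57 (adjusted p = 0.113). In the remaining lists the members of smallest p were *Fgg* and *Crp* (0.47 and 0.30), *Ccnd1* and *Aurka* (-0.81 and -0.51), *Nhp2* and *Mybbp1a* (-0.43 and -0.69), *Sqstm1* and *Ulk1* (0.29 and 0.52) and *Psmd11* and *Psmd4* (0.35 and 0.22 on the log2 scale), with adjusted p from 0.0947 to 0.346.

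**Figure D2:**
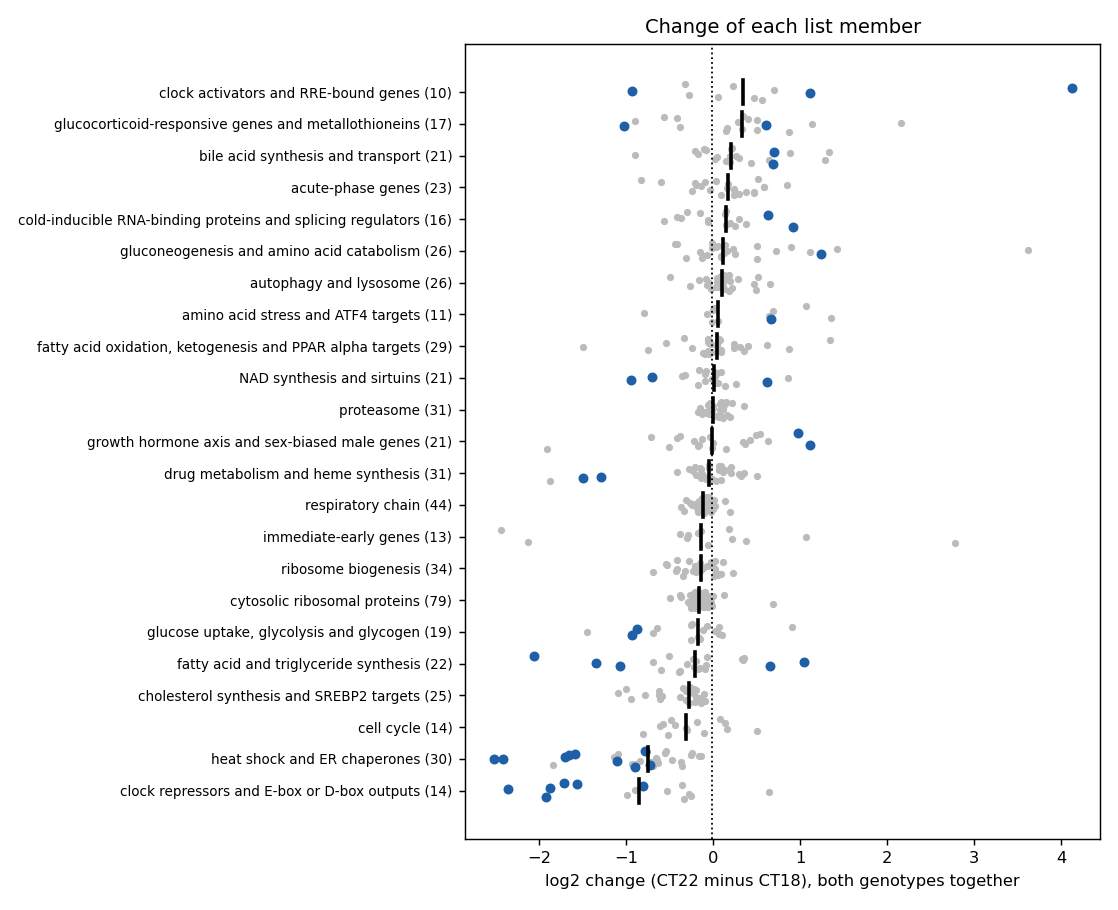
log2 change from CT18 to CT22 (horizontal axis) of each tested member of 23 gene lists, with the number tested in parentheses, called members in blue, other members in grey, list medians as black bars and the median of all genes as the dotted line. Medians lie at -0.85 for clock repressors and outputs and -0.74 for chaperones, and at 0.35 for clock activators and RRE-driven genes.

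Many of the largest rises belonged to none of these lists. *Gclm* (chr3:122245557-122270732, plus strand), the modifier subunit of the enzyme that starts glutathione synthesis, had one of the smallest spreads. It was at 14.1 and 14.4 FPKM in WT CT18, 18.3 and 16.4 FPKM in ΔRRE CT18, 45.2 and 39.3 FPKM in WT CT22 and 40.1 and 45.7 FPKM in ΔRRE CT22 (log2 change 1.43 ± 0.10, adjusted p = 0.0011). The CT22 values of the genotypes overlapped. *Ndrg1*, a stress-regulated gene, was at 1.95 and 1.23 FPKM in WT CT18, 2.39 and 1.72 FPKM in ΔRRE CT18, 9.87 and 8.13 FPKM in WT CT22 and 6.51 and 9.98 FPKM in ΔRRE CT22 (log2 change 2.20 ± 0.22, adjusted p = 0.00299). *Rnf125*, an E3 ubiquitin ligase gene, was at 21.4 to 34.2 FPKM at CT18 and at 84.3 to 177 FPKM at CT22 (log2 change 2.07 ± 0.17, adjusted p = 0.00127). *Osgin1*, an oxidative stress-induced gene, rose from 25.4 ± 7.58 to 65.3 ± 15.04 FPKM. *Pitx3*, a homeobox gene, rose from 3.74 ± 0.928 to 9.79 ± 2.50 FPKM, and *Loxl4*, a lysyl oxidase-like gene, from 0.726 ± 0.354 to 4.43 ± 2.69 FPKM (SD, n = 4; adjusted p = 0.00989, 0.0113 and 0.0146). These 6 genes kept their call without any 1 library. With all 24 libraries in 1 fit, *Osgin1* and *Pitx3* lost it (adjusted p = 0.0980 and 0.298), as *Loxl4* did without a filter on low values (0.0583).

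The other rises among the 15 largest were *Tcp11l2*, *Phospho1*, *Gas7*, *Trmt9b*, *Unc93a2*, *Rnf144a*, *Tymp* and *Arhgap6*. Their log2 changes lay between 1.42 and 2.15 and their adjusted p between 0.0194 and 0.0442. *Tymp*, which encodes thymidine phosphorylase, was the most abundant of them, with means of 16.0 ± 5.64 and 42.7 ± 10.5 FPKM (SD, n = 4), and its groups did not overlap. *Trmt9b* was the only one of the 8 whose times overlapped. Each of the 8 lost its call in 5 to 7 of the 8 fits without 1 library.

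Of the 15 largest falls, 11 belonged to the lists above, and the others were *Tnnc1*, *Noct*, *Rcan1* and *Tsku*. *Tnnc1*, the slow skeletal and cardiac troponin C, was at 4.20 and 5.25 FPKM in WT CT18, 2.89 and 4.22 FPKM in ΔRRE CT18, 1.303 and 1.326 FPKM in WT CT22 and 0.727 and 0.801 FPKM in ΔRRE CT22 (log2 change -1.91 ± 0.19, adjusted p = 0.00250). Of the 12 adipose and muscle markers, 6 were listed at 0 in all 8 libraries, the muscle genes *Ckm*, *Acta1* and *Tnnt3* among them, and the list summed to 2.79 to 6.87 FPKM at CT18 and 2.87 to 9.91 FPKM at CT22. *Noct*, the rhythmic phosphatase nocturnin, fell from 6.31 ± 3.57 to 1.89 ± 1.15 FPKM (adjusted p = 0.0275). *Rcan1*, a regulator of calcineurin, fell from 21.6 ± 10.8 to 6.744 ± 1.505 FPKM (adjusted p = 0.0380). *Tsku*, which encodes the secreted protein tsukushi, was at 73.8 and 87.7 FPKM in WT CT18, 82.1 and 54.5 FPKM in ΔRRE CT18, 37.7 and 45.3 FPKM in WT CT22 and 12.8 and 17.1 FPKM in ΔRRE CT22 (adjusted p = 0.0237). *Tnnc1* kept its call without any 1 library, and *Noct*, *Rcan1* and *Tsku* lost it in 5 or 6 of the 8 such fits (adjusted p = 0.0568 to 0.117).

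The change within each genotype was then taken from a fit of all 8 libraries with a mean per group, in which the genotypes share 1 estimate of the spread. In WT, 9 genes rose and 5 fell (0.125% of all genes tested), and in ΔRRE 23 rose and 23 fell (0.409%). When 1 library was left out, the counts were 0 (without WT CT18 replicate 2) to 34 (without WT CT18 replicate 1) in WT and 4 (without ΔRRE CT22 replicate 1) to 70 (without WT CT18 replicate 2) in ΔRRE, and these ranges overlap. Both lists shared 10 genes, 10 of 14 of the WT list and 10 of 46 of the ΔRRE list. The direction in one genotype comes from other libraries than the direction in the other, while the estimate of the spread is shared. Of the 14 genes called in WT, 13 had the same sign in ΔRRE, the exception being *Zfp595*. Of the 46 called in ΔRRE, 42 had the same sign in WT, the exceptions being *Mup17*, *Gm21887*, *Gm47283* and *Gm16286*. With an unadjusted p under 0.01 the numbers were 275 of 313 genes from WT (87.9%) and 395 of 449 genes from ΔRRE (88%). Over all genes tested, 62.4% had the same sign in both genotypes. The genes with a p under 0.01 in WT had a median size of 0.88 on the log2 scale in WT and 0.53 in the same direction in ΔRRE, and those from ΔRRE had 0.94 in ΔRRE and 0.43 in WT. Smaller values in the libraries that did not choose the genes are usual, since the choice favours large values.

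**Figure D3:**
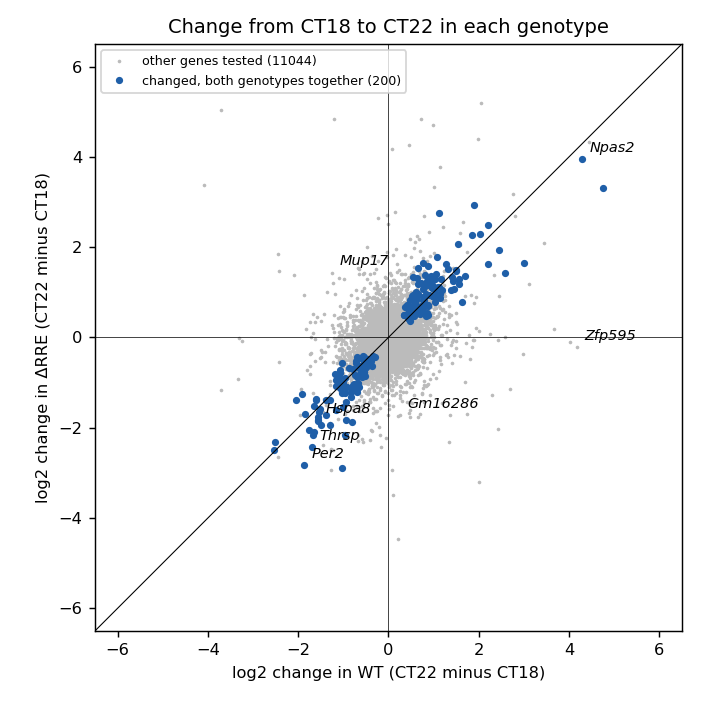
log2 change from CT18 to CT22 in WT (horizontal axis) and in ΔRRE (vertical axis) of each gene tested, with the 200 genes called in both genotypes together in blue and the line of equal change. The called genes lie along the line, which their choice from both genotypes together favours. The estimates of *Mup17*, *Zfp595* and *Gm16286* had opposite signs in the genotypes, a difference that did not pass the test in the main fit.

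Whether the change differed between the genotypes was tested as an interaction. No gene passed (0% of those tested), the smallest adjusted p being 0.0923, and 484 genes (4.3%) had an unadjusted p under 0.05. Without WT CT18 replicate 1, 4 genes passed, without ΔRRE CT22 replicate 2, 2 genes passed, and without any of the 6 other libraries, 0. Among the 200 genes called in both genotypes together, 14 had an unadjusted interaction p under 0.05. Of the 200, 130 had the larger change in ΔRRE, a count that was not tested. Over all genes tested, the change from CT18 to CT22 had an unadjusted p under 0.05 for 1009 in WT and 1326 in ΔRRE. The 5 genes of smallest p were *Gm21887*, *Mup17*, *Zfp595*, *Gm47283* and *Gm16286*. *Mup17*, one of the major urinary protein genes, was at 1783 and 1580 FPKM in WT CT18 and 196 and 288 FPKM in ΔRRE CT18, and at 835 and 603 FPKM in WT CT22 and 669 and 619 FPKM in ΔRRE CT22. The genotypes thus differed at CT18 and overlapped at CT22 (interaction log2 difference 2.68 ± 0.31, ΔRRE minus WT, adjusted p = 0.0923). The *Mup* genes are a family of near-identical copies, so the reads of *Mup17* are uncertain. *Gm21887* and *Gm47283* were both high in ΔRRE CT18 (97.0 and 124 FPKM, and 103 and 130 FPKM) and between 25.6 and 43.9 FPKM in the other 6 libraries. *Zfp595*, a zinc finger gene, was at 0.00972 and 0.00299 FPKM in WT CT18 and between 1.46 and 2.48 FPKM elsewhere. The interaction of *Zfp595* passed in 2 of the alternatives, a prior without trend and all 24 libraries in 1 fit (adjusted p = 0.000486 in the latter). *Gm16286* was at 6.90 and 9.45 FPKM in ΔRRE CT22 and between 20.5 and 27.1 FPKM elsewhere. Among the genes of the clock lists, *Per2* (-1.87 in WT and -2.83 in ΔRRE), *Dbp* (-1.52 and -0.46), *Nr1d2* (-0.95 and -0.11) and *Bmal1* (0.86 and 0.26) had an unadjusted interaction p under 0.05. None of these 4 differences passed the adjustment. An unadjusted interaction p under 0.05 was also reached by 6 of the 21 genes of the growth hormone axis, against 4.3% of all genes. For immediate-early genes it was 5 of 13, and for ribosome biogenesis 4 of 34. Ribosome biogenesis had 14 of 34 members of the same sign in both genotypes (41.2%, against 62.4% of all genes). Its median log2 change was 0.10 in WT and -0.36 in ΔRRE.

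The flanking times CT14 and CT2 were measured in 8 further libraries, which the calls did not use. From CT14 to CT2, 569 genes were higher (5.06%) and 354 lower (3.15%) among all genes tested. When the libraries were rescaled by the median of ratios, these were 458 and 450, so that the share of higher calls went from 61.6% to 50.4%. The sum of 923 calls was 467 and 535 without WT CT2 replicates 1 and 2, 503 and 582 without WT CT14 replicates 1 and 2, 579 and 511 without ΔRRE CT2 replicates 1 and 2, and 799 and 618 without ΔRRE CT14 replicates 1 and 2. Of all 11244 genes tested, 6206 were higher at CT2 than at CT14 (55.2%) and 5038 lower, passed or not. Of the 115 genes that rose from CT18 to CT22, 111 were higher at CT2 than at CT14 and 73 of them passed the test (63.5%). Of the 85 that fell, 83 were lower at CT2 and 47 passed (55.3%). A single gene, *Gpcpd1*, a glycerophosphodiesterase gene that was named for this, passed in the opposite direction. It rose by 1.21 on the log2 scale from CT18 to CT22 and fell by 1.46 from CT14 to CT2, with its highest mean at CT10 (69.4 FPKM).

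**Figure D4:**
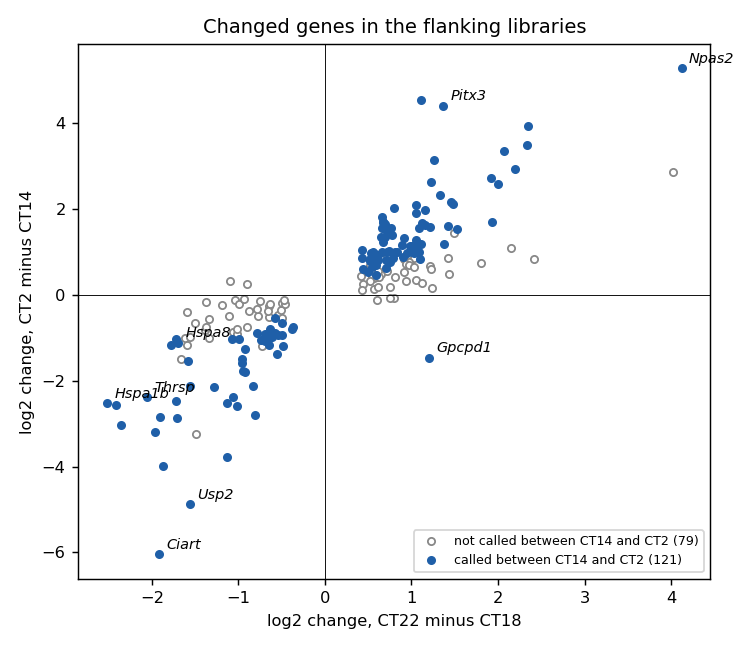
log2 change from CT18 to CT22 (horizontal axis) and from CT14 to CT2 in other libraries (vertical axis) of the 200 called genes, filled where the latter passed the test. Almost all points lie where both changes have the same sign, with *Gpcpd1* the one filled point where they differ.

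Size differed more than direction. *Ciart* had -1.92 from CT18 to CT22 and -6.05 from CT14 to CT2 on the log2 scale, *Usp2* -1.56 and -4.88, and *Pitx3* 1.37 and 4.40. Others had a larger estimate from CT18 to CT22 than from CT14 to CT2. *Gclm* rose by 1.43 from CT18 to CT22 and differed by 0.49 between CT14 and CT2 (adjusted p = 0.218). *G6pc* had 1.24 and 0.17 (adjusted p = 0.727), and *Manf* -1.59 and -0.39 (adjusted p = 0.498). *Hspa8* had -1.70 and -1.11 (adjusted p = 0.0291).

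Over the 6 times of the day, the mean of the 4 libraries was lowest at CT14 for 59 of the 115 risen genes (51.3%), at CT18 for 45 (39.1%) and at CT10 for 11 (9.57%). Over all genes tested these shares were 18.3%, 19.5% and 19.1%. The mean was highest at CT22 for 36 risen genes (31.3%), at CT2 for 34 (29.6%), at CT10 for 26 (22.6%) and at CT6 for 19 (16.5%). Here the shares over all genes were 9.05%, 20.3%, 21% and 14.1%. The 85 fallen genes were highest at CT14 in 39 cases (45.9%), at CT18 in 36 (42.4%) and at CT10 in 10 (11.8%), against 20.6%, 14.9% and 21% of all genes. They were lowest at CT6 in 29 (34.1%), at CT10 in 19 (22.4%), at CT22 in 19 (22.4%) and at CT2 in 18 (21.2%). Over all genes these were 15.3%, 19.1%, 19.9% and 8.08%. A direction at CT18 or CT22 is fixed in part by the choice of genes, so these counts are a description. *Npas2* had its highest mean at CT2 (4.85 FPKM) and its lowest at CT14 (0.0238 FPKM). *Per2* was at 16.9 FPKM at CT14 and 17.2 FPKM at CT18 before its fall. *Nampt* was highest at CT14 with 29.7 FPKM and had already gone down to 19.2 FPKM at CT18. *Thrsp* was at 786 FPKM at CT14 and 805 FPKM at CT18 and between 100.2 and 196 FPKM at the 4 other times. These similar means hide a difference between the genotypes. In WT, *Thrsp* was at 925 and 1028 FPKM at CT14, above its 844 and 676 FPKM at CT18. In ΔRRE it was at 421 and 770 FPKM at CT14 and at 967 and 735 FPKM at CT18. That difference was not tested. *Gclm* had means between 32.0 and 43.0 FPKM at the 5 other times and its lowest mean at CT18 (15.8 FPKM). Single libraries at other times were as low, with 15.8 FPKM in WT CT10 replicate 2 and 17.9 FPKM in WT CT14 replicate 2.

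**Figure D5:**
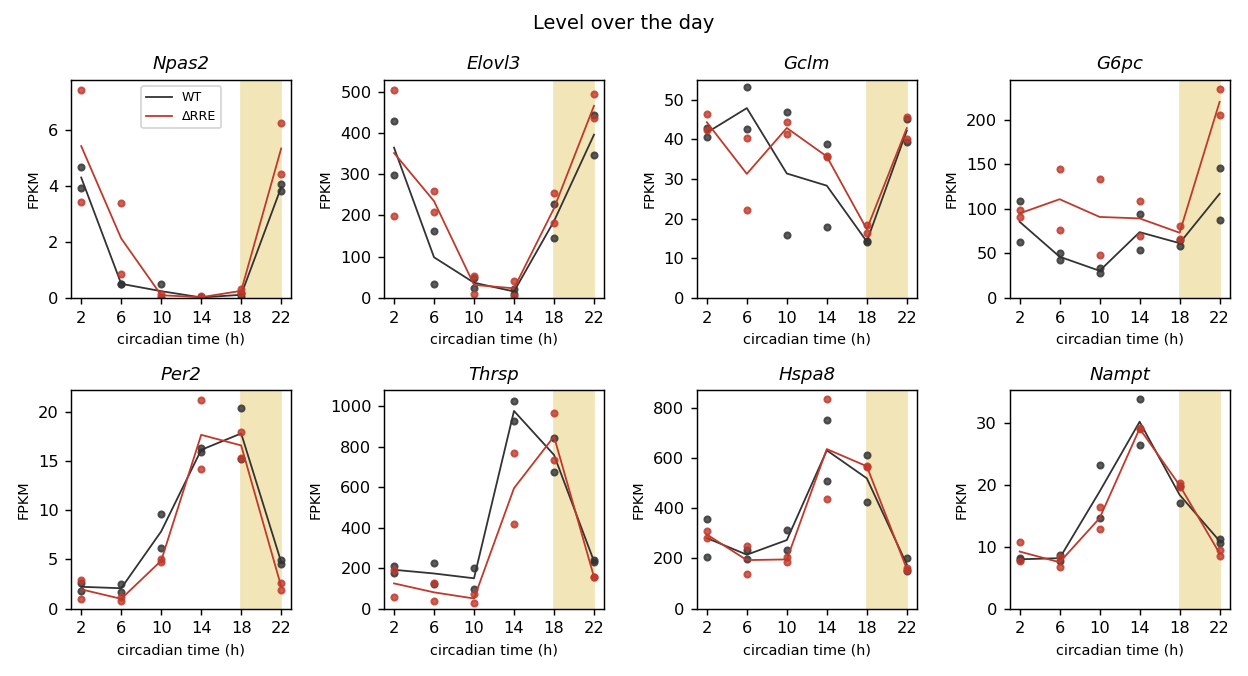
FPKM (vertical axes, from 0) of 8 genes over circadian time (horizontal axes) in WT (black) and ΔRRE (red), with points for libraries, lines for the means of the 2 libraries and shading for the interval from CT18 to CT22. *Npas2* and *Elovl3* were near their minimum at CT10 and CT14 and high at CT22 and CT2. *Per2* and *Hspa8* went down from a plateau at CT14 and CT18, and *Gclm* was low at CT18. *Thrsp* was high at CT14 and CT18 and lower at CT22, with a WT mean that was higher at CT14 and a ΔRRE mean that was higher at CT18.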

How the data were processed

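Poly(A) RNA of livers was sequenced in 24 libraries, 2 for each genotype and circadian time. The authors deposited FPKM values for 54733 genes per library, without counts, so the depth behind a value is unknown and no counting interval is given. Their processing notes name Trimmomatic 0.39, HISAT2 2.1.0, StringTie 1.3.5 and the build mm10. No column was left unmatched to a sample (0 columns), and the series-wide table repeats the values of the single libraries.

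The filter kept the 11244 genes that averaged 1 FPKM or more across the 24 libraries. The values were tested as log2(FPKM + 0.1) with limma 3.58.1 in R 4.3.3, using a moderated test with an intensity-dependent prior and Benjamini-Hochberg adjustment over all genes tested, and called at an adjusted p under 0.05. All tests were two-sided. The main fit held the 8 libraries of CT18 and CT22 with genotype as a term. The changes within each genotype and their difference came from a fit with 1 mean per group, and CT2 was set against CT14 in the same way as the main fit. The procedure was tested on simulated data.

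The comparison, the gene lists and the rule for named genes were chosen with earlier results of these data known. Named were the 15 largest rises and 15 largest falls among called genes of the same sign in both genotypes (without unnamed gene models), all genes of both clock lists, up to 4 called members of each other list or else the 2 of smallest p, and the 5 genes of smallest interaction p. Of the genes this rule picked, 2 are not reported here. *Gm129*, an earlier symbol of *Ciart*, was counted once. Gene coordinates are those of GENCODE M21 on GRCm38, and the sequences those of RefSeq.

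Alternatives were 1 or 0.01 FPKM as the added constant, a filter at 5 FPKM, no filter, a filter at 1 FPKM on the 8 libraries alone, rescaling by the median of ratios, a prior without trend, all 24 libraries in 1 fit, the replicate number as a block, no genotype term, and each library left out in turn.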

Additional observations from a re-analysis of the deposited data

Results flagged for a closer look

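Of 182 sets of 4 libraries (91 named genes at 2 times), 3 held a library far from the other 3 by Dixon's criterion, which chance alone meets in about 1 of 20 sets. *Nhp2*, a component of small nucleolar ribonucleoproteins, was at 18.79 FPKM in WT CT18 replicate 1, against a median of 21.5 FPKM at CT18. *Phospho1* was at 9.674 FPKM in ΔRRE CT22 replicate 1, against a median of 7.36 FPKM at CT22. *Rora* was at 9.679 FPKM in ΔRRE CT22 replicate 2, against a median of 7.75 FPKM at CT22.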

How the results depend on the processing

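The 200 called genes kept their direction under every alternative run, and 34 of them kept their call under all of them. Depth limits cannot be given, since no counts were used, and with 2 libraries a group the number of calls is the least stable result. Without a filter, 58 genes were called (33 higher, 25 lower), 0 in WT, 27 in ΔRRE and 545 between CT14 and CT2, over more genes tested. With a prior without trend the counts were 88 (50 higher, 38 lower), 3 in WT, 24 in ΔRRE and 2 for the difference between the genotypes (*Gm27517* and *Zfp595*). With all 24 libraries in 1 fit they were 6 in WT, 29 in ΔRRE and 1 for that difference (*Zfp595*), and after rescaling 7 in WT. The causes were not tested.

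Leaving out 1 library gave 50 to 248 called genes, 30 to 122 higher and 20 to 126 lower, 0 to 34 in WT, 4 to 70 in ΔRRE, 0 to 4 for the difference between the genotypes and 467 to 799 between CT14 and CT2. Among named genes that were not called, the log2 change turned its sign for *Cry1* (-0.0146 to 0.18), *E2f8* (-0.76 to 0.15) and *Mup17* (-0.28 to 0.46). Of the 51 named genes that were called, 30 lost the call without a filter, 19 with a prior without trend, 12 with all 24 libraries in 1 fit, 7 without the genotype term and 3 after rescaling. With the replicate number as a block, 218 genes were called, and *Cirbp*, *Atf5* and *Fasn* were not (adjusted p = 0.0514, 0.0560 and 0.0560). No label says whether equal replicate numbers pair the libraries. Replicate differences correlated between groups with r from -0.0474 to 0.198, which cannot decide it.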
